A study of Mus musculus with 5 samples.

Results

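The dentate gyrus (DG) of mice that ran the longest distances (H-RUN) was compared directly with that of mice that ran the shortest distances (L-RUN), with no control group in the difference. These are 2 of the 5 libraries of the study, and for each gene the L-RUN value was subtracted from the H-RUN value. Of 23420 gene symbols, the 13550 with a mean of at least 5 over the 5 libraries were called expressed and make up the comparison. All libraries came from male wild-type mice of the outbred CD1 strain, 4 months old per the labels, and held polyA RNA of the microdissected DG. L-RUN was a pool of the 4 runners with the lowest distances and H-RUN a pool of the 4 with the highest, out of 8 mice housed alone with a running disk for 4 weeks. The RUN library was a pool of these same 8 mice. LD was a pool of 8 mice housed alone with a locked disk, and CE a pool of 8 mice housed in groups with a locked disk and tunnels. With 1 library per group, no test between groups is possible, and a pool shows nothing of the spread between its mice. Because distance sorted outbred mice that chose how much to run, the effect of distance and other differences between these sets of 4 mice cannot be told apart.

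The DG is the entry gate of the hippocampus. Its granule cells receive input from the entorhinal cortex, send mossy fibers to the pyramidal cells of CA3, and are among the few neurons of the brain that continue to be born in adults. Voluntary running is known to raise the birth of granule cells and the expression of growth factors such as BDNF. The tissue around the granule cell layer also holds interneurons, glia, vessels and, along the hippocampal fissure, leptomeninges, a thin sheet of fibroblasts that secrete collagens, retinoic acid and carrier proteins.

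The deposited values are regularized log values, a log2 scale of counts on which genes with few reads are drawn towards their own mean, so that differences of weakly expressed genes are understated. A difference of 0.3 in either direction, the cut-off used in the study, equals a 1.23-fold difference. Depth is unknown, since the files hold no counts. The only error estimate is technical. The RUN library should equal a mixture of the L-RUN and H-RUN RNA, and its departure from a computed equal mixture gave a technical SD of 0.0365 for a difference between libraries, from 0.0222 in the decile of the most strongly expressed genes up to 0.0473 in the noisiest decile. It does not cover differences between mice. Across the libraries, of 7 blood cell genes 5 are in the files and 0 reached the minimum mean. Of these, Hba-a1, Hba-a2 and Hbb-b2 are listed at 0 in every library, which can also be a failed assignment of reads between near-identical genes. All 14 granule cell markers were expressed.

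In H-RUN, the secreted enzyme Ptgds, the growth factor Igf2 and many matrix genes were lower than in L-RUN, and the splicing factor Cwc22, the kinase Dgkh and the NMDA receptor subunit Grin2a were higher. In all, 208 genes differed by at least 0.3, which is 1.54% of the expressed genes. Of these, 132 were higher in H-RUN (0.974%) and 76 were lower (0.561%). The genes on the lower side reached larger differences, as 20 were lower by at least 0.5 and 17 higher by at least 0.5. The difference over all expressed genes had a median of 0.003 and an SD of 0.104, which is 2.87 times the technical SD. Here an ordinary SD, which the largest differences raise, is set against a technical SD from the median absolute deviation. The ratio therefore does not describe a typical gene. At the minimum of expression, Pcdhb6 (difference 0.06) and Iqcd (0.06) were just inside, and Actl10 (0.05) and Cubn (-0.08) just outside.

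**Figure D1:**
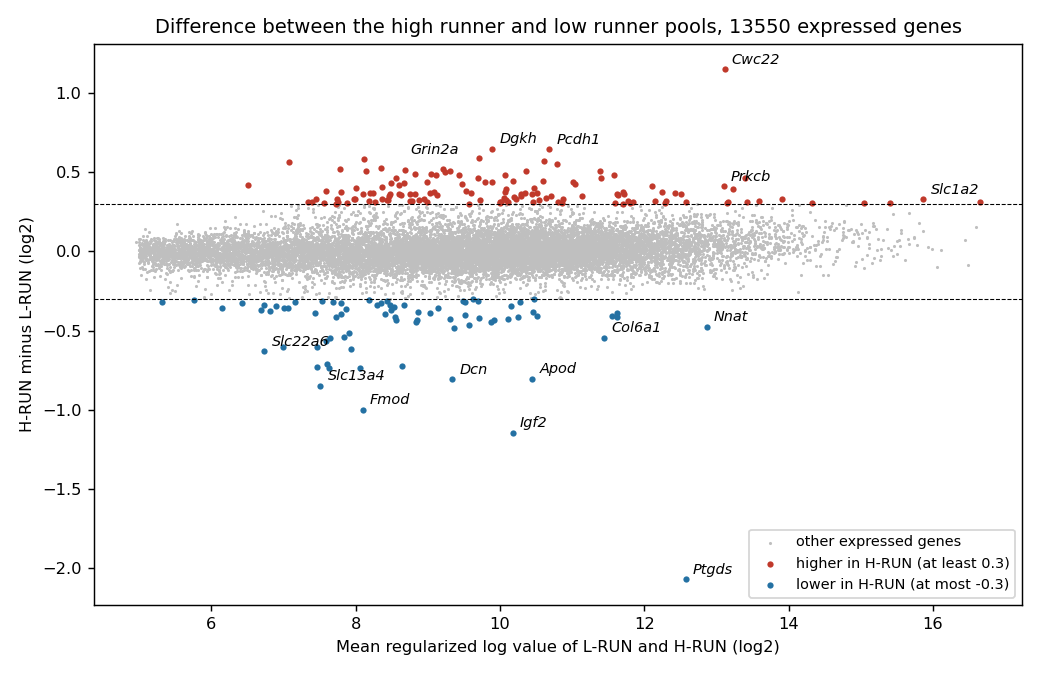
Each point is 1 of 13550 expressed genes. The horizontal axis gives the mean of the L-RUN and H-RUN regularized log values and the vertical axis H-RUN minus L-RUN, both in log2, with dashed lines at 0.3 in either direction. The cloud lies close to 0 at all levels, 132 genes lie above the upper line (red), 76 lie under the lower line (blue), and Ptgds at -2.07 and Cwc22 at 1.15 lie farthest out.

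The values of the other 3 libraries showed which of the pools stood apart. L-RUN was farther than H-RUN from LD for 178 of the 208 genes, namely 116 of the 132 higher genes and 62 of the 76 lower ones. Among the 132 genes higher in H-RUN, the median against LD was -0.42 in L-RUN, -0.07 in H-RUN and -0.14 in CE. Among the 76 genes lower in H-RUN, it was 0.33 in L-RUN, -0.05 in H-RUN and 0.09 in CE. Both runner pools are set here against the same LD library. Of the higher genes, 93 had L-RUN under LD by at least 0.3 and H-RUN within 0.3 of LD, 8 had H-RUN above LD and L-RUN within, 3 had both under LD, and 28 had both within. Of the lower genes, 43 had L-RUN above LD with H-RUN within, 6 had H-RUN under LD with L-RUN within, and 27 had both within. The number of genes past the cut-off in opposite directions from LD was 0. Over all expressed genes, 3.13% passed this cut-off in L-RUN against LD and 0.827% in H-RUN against LD, while 0.598% passed it in CE against LD.

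The RUN library, which repeats the measurement on the same RNA, had an intermediate value for 208 of these 208 genes, and for 58.3% of all expressed genes. On a scale from 0 at L-RUN to 1 at H-RUN, its median position was 0.55 for these genes, with quartiles of 0.48 and 0.61 and a range of 0.31 to 0.86. Their largest departure from the equal mixture was 0.154. The RUN library is a second measurement of the same mice and not a replicate. Because it mixes the same RNA and the 208 genes were picked by the H-RUN minus L-RUN difference, intermediate values were to be anticipated. Small differences leave little room between the pools, so the share over all expressed genes is no yardstick for the 208.

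**Figure D2:**
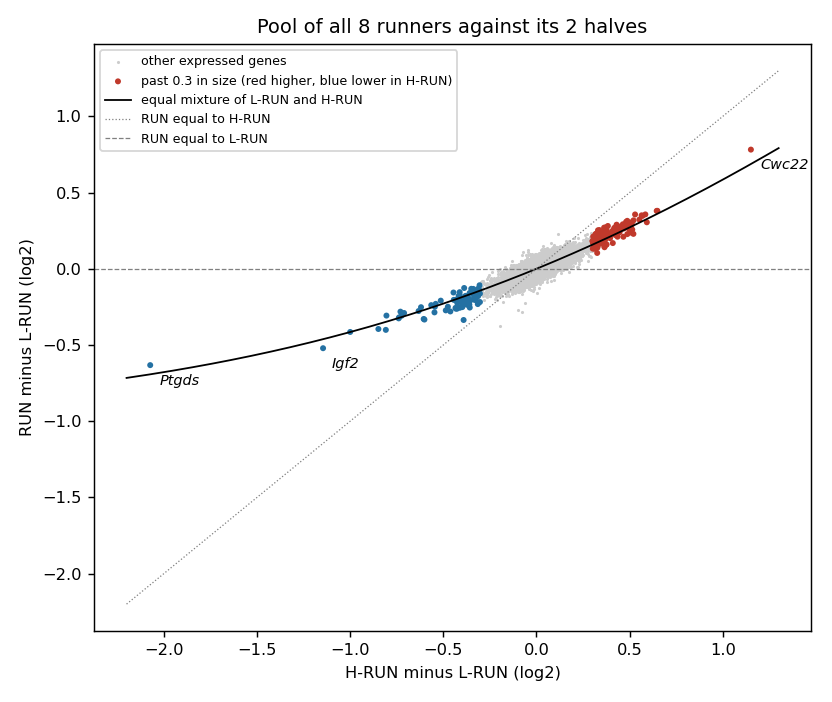
The horizontal axis gives H-RUN minus L-RUN and the vertical axis RUN minus L-RUN (log2) for each expressed gene, with genes past 0.3 in color. The black curve is the value computed for an equal mixture, and the colored points follow it from Ptgds at the far left to Cwc22 at the far right, between the lines for RUN equal to L-RUN and RUN equal to H-RUN.

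Ptgds, which encodes the lipocalin-type prostaglandin D synthase and is made in large amounts by leptomeninges, had the largest difference of all genes (chromosome 2, 25466709 to 25470046, minus strand, GRCm38). Its regularized log value was 11.64 in LD, 11.94 in CE, 13.61 in L-RUN, 12.98 in RUN and 11.54 in H-RUN. H-RUN was thus close to LD, L-RUN stood far above every other library except RUN, which holds the RNA of the same mice, and the difference of -2.07 (technical SD 0.0222) means a level 4.21-fold lower in H-RUN. Igf2, an imprinted fetal growth factor that is retained in adult meninges (chromosome 7, 142650766 to 142666816, minus strand), had values of 9.65 in LD, 9.75 in CE, 10.75 in L-RUN, 10.23 in RUN and 9.60 in H-RUN, a difference of -1.15 (technical SD 0.0403). Fmod, the collagen-binding proteoglycan fibromodulin (chromosome 1, 134037254 to 134048277, plus strand), had values of 7.58 in LD, 7.69 in CE, 8.60 in L-RUN, 8.18 in RUN and 7.60 in H-RUN, a difference of -1.0 (technical SD 0.0471). In both genes the LD, CE and H-RUN values lay together, and L-RUN was the highest library.

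The leptomeningeal fibroblast list, to which these 3 genes belong, had the largest share of differences among the lists. The lists were chosen with earlier results of these data known, so this rank and the counts are descriptions. Of its 32 genes, 30 were expressed, 22 were lower in H-RUN by at least 0.3 and 0 were higher, and all 30 differences were negative, with a median of -0.51 against 0.003 over all expressed genes. Of the expressed members, 73.3% were thus lower, against 0.561% of all expressed genes. The 22 genes are 28.9% of the 76 lower genes, while the list holds 30 of the 13550 expressed genes. On the linear scale the summed level of the list was 24485 in L-RUN, 17901 in RUN, 13094 in CE, 11540 in LD and 10893 in H-RUN, so that L-RUN held more than every other library. Ptgds, the most abundant member (13.61 in L-RUN), weighs most in this sum, which does not describe a typical member. The secretory and matrix members were Apod, a lipid carrier (-0.81), Aebp1, a collagen-associated protein (-0.74), and Mgp, an inhibitor of calcification (-0.71). The membrane transporters were Slc13a4 for sulfate (-0.85), Slc6a13 for GABA and taurine (-0.73), Slc22a6 for organic anions (-0.63), Slc6a20a for imino acids (-0.37) and Slc47a1 for organic cations (-0.32). Aldh1a2, which makes retinoic acid, differed by -0.74 and Gjb2, the gap junction protein connexin 26, by -0.60. Other members past the cut-off were the IGF-binding protein Igfbp2 (-0.43), Itih2 (-0.36) and the complement inhibitor Serping1 (-0.33). In bulk tissue, fewer cells of a type and less RNA per cell cannot be told apart, and the part of the amount of meninges in the dissected tissue was not tested.

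The collagens, some of which are also on the leptomeningeal list, had the same direction. With the proteoglycans, these lists held 27 of the 76 lower genes. Of 44 collagen chains, 32 were expressed, 8 were lower in H-RUN, 1 was higher and 29 had a negative difference, with a median of -0.09. Among the expressed chains, 28.1% passed the cut-off, against 1.54% of all expressed genes. The fibrillar chains Col1a2 (-0.62), Col3a1 (-0.61), Col5a1 (-0.42) and Col1a1 (-0.39) were lower, as were the chains of the microfibrillar collagen VI, Col6a3 (-0.56), Col6a1 (-0.55) and Col6a2 (-0.44), and Col9a2 (-0.35). Of these 8 chains, Col6a1 (0.52), Col1a2 (0.45), Col5a1 (0.44), Col6a2 (0.43) and Col1a1 (0.39) were also above LD in CE by at least 0.3. Col3a1 (0.20), Col9a2 (0.10) and Col6a3 (0.005) were above LD in CE by less. The Col6a1 value was 11.25 in LD, 11.77 in CE, 11.71 in L-RUN, 11.46 in RUN and 11.17 in H-RUN, and CE and L-RUN were thus alike and H-RUN was near LD. Col11a1, a minor fibrillar chain, was the exception on the higher side (0.34), and was under the cut-off (0.28) after the length trend was removed. Leaving out the leptomeningeal, pyramidal cell and interneuron markers left 51 lower and 128 higher genes.

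The small leucine-rich proteoglycans, which overlap with the leptomeningeal list and bind collagen fibrils and growth factors, had 10 of 13 members expressed, 4 lower in H-RUN and 0 higher, with 10 of 10 differences negative and a median of -0.20. The 4 lower genes are 40% of the expressed members, against 0.561% of all expressed genes. Besides Fmod, these were Dcn (decorin, -0.81), Ogn (osteoglycin, -0.72) and Bgn (biglycan, -0.31). Dcn and Ogn departed from the pattern of the other leading genes. The Dcn value was 9.45 in LD, 9.82 in CE, 9.74 in L-RUN, 9.34 in RUN and 8.93 in H-RUN. That of Ogn was 8.95 in LD, 8.90 in CE, 8.996 in L-RUN, 8.69 in RUN and 8.27 in H-RUN. For both, H-RUN was the lowest library, under LD by -0.52 for Dcn and -0.68 for Ogn, and for Ogn L-RUN was within 0.05 of LD.

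**Figure D3:**
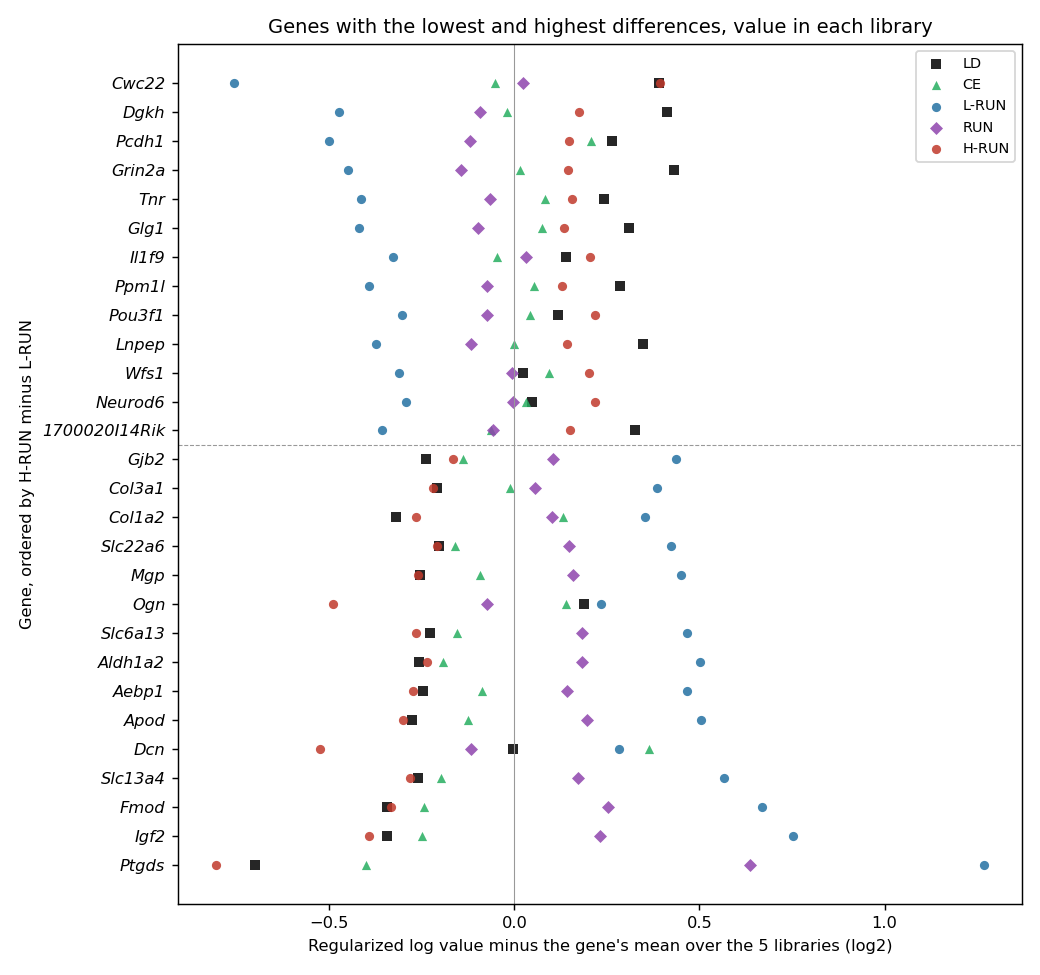
Each row is 1 of the 15 genes with the lowest or 1 of 13 of the 15 genes with the highest H-RUN minus L-RUN difference, and the horizontal axis gives the regularized log value of each library minus the gene's mean over the 5 libraries (log2). L-RUN (blue circle) lies at an end of every row except that of Dcn, RUN (purple) lies between L-RUN and H-RUN (red circle), and H-RUN lies near LD (black square) for most of the lower genes, with Dcn and Ogn as the rows where H-RUN lies far to the left of LD.

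Among the other cell types, the markers of pyramidal cells had the highest median, with differences in both directions. Of 17 markers of CA1, CA2 and CA3 pyramidal cells, which adjoin the DG, 4 were higher in H-RUN and 1 was lower. That is 29.4% past the cut-off, against 1.54% of all expressed genes. Differences of any size were positive for 11 markers and negative for 6, with a median of 0.17. Higher were Pou3f1, a POU transcription factor (0.52), Wfs1, the endoplasmic reticulum protein wolframin (0.51), Man1a, a Golgi mannosidase (0.37), and Bok, a BCL2 family protein (0.36). Nnat, an imprinted proteolipid and the most strongly expressed of these 5, was lower (-0.48), with 12.62 in LD, 12.98 in CE, 13.10 in L-RUN, 12.85 in RUN and 12.63 in H-RUN. With Nnat as the most abundant of them, the summed linear level of the list was lower in H-RUN (23021) than in L-RUN (24410), against the sign of the median. Neurod6, a transcription factor of pyramidal neurons that was not on the list, was named for its rank among the 15 largest positive differences. It was higher by 0.51, with 11.47 in LD, 11.46 in CE, 11.13 in L-RUN, 11.42 in RUN and 11.64 in H-RUN. L-RUN was the lowest library for Neurod6 and H-RUN the highest. The part of pyramidal tissue in the dissections was not tested.

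Granule cells were represented by 14 markers, with 1 higher in H-RUN, 0 lower and a median of 0.06. The higher gene was Prox1, the transcription factor that sets granule cell identity (0.32), whose value was 12.01 in LD, 11.86 in CE, 11.61 in L-RUN, 11.76 in RUN and 11.93 in H-RUN. L-RUN was again the lowest library. With the trend with transcript length removed, as described below, Prox1 was at 0.26 and 0 granule cell markers passed the cut-off. Of 16 interneuron markers, Tac1 (-0.36), the precursor of substance P, and Npy (-0.32), neuropeptide Y, were lower and 0 were higher. Both also account for the 2 lower genes among 21 expressed neuropeptide genes, whose median was -0.07. Past the cut-off were 7.14% of granule cell markers, 12.5% of interneuron markers and 9.52% of neuropeptide genes, against 1.54% of all expressed genes. The Npy value was 10.12 in LD, 10.13 in CE, 10.44 in L-RUN, 10.27 in RUN and 10.12 in H-RUN, so that L-RUN was high and H-RUN at the LD level. Npy was at -0.25 after the length trend was removed, and Tac1 at -0.34.

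Of 13 astrocyte markers, only the glutamate transporter Slc1a2 passed the cut-off (0.33), with 16.06 in LD, 15.86 in CE, 15.70 in L-RUN, 15.88 in RUN and 16.03 in H-RUN. It was under the cut-off (0.25) after the length trend was removed. The 12 expressed oligodendrocyte and myelin markers were all on the higher side but under the cut-off, between 0.04 and 0.23 with a median of 0.15. Oligodendrocyte precursor markers (6 genes, median 0.09), microglia markers (14 genes, median -0.02) and choroid plexus markers (5 of 14 expressed, median 0.03) had 0 members past the cut-off. Of 19 endothelial and pericyte markers, 2 were lower, the matrix protein Vtn (-0.41) and smooth muscle actin Acta2 (-0.32), and the median was 0.03. Past the cut-off were 7.69% of astrocyte markers and 10.5% of endothelial and pericyte markers, against 1.54% of all expressed genes.

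**Figure D4:**
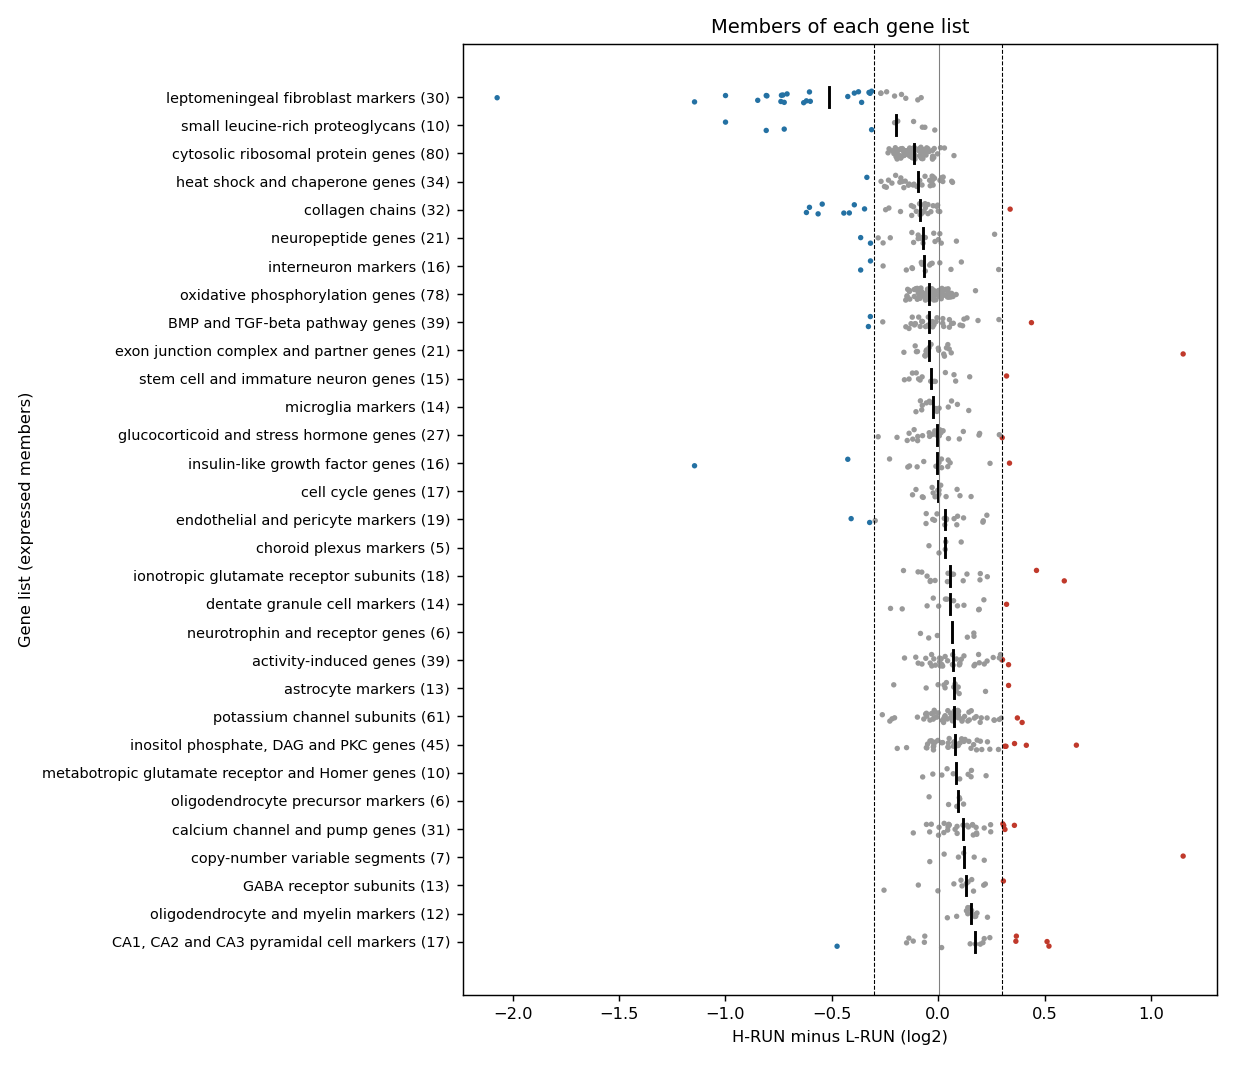
Each row is a gene list with its number of expressed members, each point a member, the horizontal axis H-RUN minus L-RUN (log2), the black bar the median of the list and the dashed lines 0.3 in either direction. The leptomeningeal list reaches from -2.07 to -0.08 and has the lowest median of the lists (-0.51), the pyramidal cell list has the highest (0.17), and in the receptor, channel and protein kinase C lists all points past the cut-off are on the higher side.

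Cwc22 had the largest difference on the higher side (chromosome 2, 77881159 to 77946375, minus strand, GRCm38). It encodes a splicing factor that recruits the helicase Eif4a3 to messenger RNA, where the exon junction complex then forms. The value was 13.68 in LD, 13.24 in CE, 12.54 in L-RUN, 13.32 in RUN and 13.69 in H-RUN. L-RUN was the lowest library and H-RUN and LD the highest, and the difference of 1.15 (technical SD 0.0222) equals a level 2.22-fold higher in H-RUN. The other exon junction complex genes did not move with it: of 21 genes of the complex and its partners in nonsense-mediated decay, Cwc22 alone passed the cut-off, and the median was -0.04. The 5 expressed neighbors of Cwc22 within 1 Mb, Ttn, Ccdc141, Sestd1, Zfp385b and Ube2e3, had differences of -0.10 to 0.18. As background, the Cwc22 locus belongs to a segment that is known to vary in copy number between mouse strains. Of 7 expressed genes in such segments, the other 6 had differences under the cut-off. The RNA of neighbors or of other genes in such segments does not measure the copy number of Cwc22. The copy number of the mice in these pools was not tested.

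The next genes on the higher side had L-RUN as the lowest library. Dgkh, diacylglycerol kinase eta (chromosome 14, 78558750 to 78732776, minus strand), had values of 10.45 in LD, 10.02 in CE, 9.57 in L-RUN, 9.95 in RUN and 10.22 in H-RUN, a difference of 0.65 (technical SD 0.0403). Pcdh1, a protocadherin, had 11.12 in LD, 11.06 in CE, 10.36 in L-RUN, 10.74 in RUN and 11.001 in H-RUN, a difference of 0.65 (technical SD 0.0308). Against LD, Dgkh was at -0.24 in H-RUN and -0.89 in L-RUN, and Pcdh1 at -0.12 in H-RUN and -0.76 in L-RUN. Tnr, the perineuronal net protein tenascin-R, was higher by 0.57. The Golgi glycoprotein Glg1 (0.55), the phosphatase Ppm1l (0.52), the insulin-regulated aminopeptidase Lnpep (0.51) and the RNA 1700020I14Rik (0.51) had the same order, with L-RUN lowest and LD highest. The cytokine Il1f9 (0.53) had H-RUN above LD, as had Pou3f1, Wfs1 and Neurod6 among the markers above. Its value was 8.55 in LD, 8.36 in CE, 8.09 in L-RUN, 8.44 in RUN and 8.62 in H-RUN, with L-RUN lowest and H-RUN highest.

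In the lists of glutamate receptors, GABA receptors and potassium channels, the differences past the cut-off were all on the higher side. The share past it was 11.1% for ionotropic glutamate receptors, 7.69% for GABA receptors and 3.28% for potassium channels. Of all expressed genes, 1.54% passed it, and there too more genes were higher (132) than lower (76). Of 18 ionotropic glutamate receptor subunits, 2 were higher and 0 lower, with a median of 0.06. They were the NMDA receptor subunits GluN2A and GluN2B, which set the kinetics of the channel. Grin2a (chromosome 16, 9567898 to 9995560, minus strand) had values of 10.30 in LD, 9.88 in CE, 9.42 in L-RUN, 9.72 in RUN and 10.01 in H-RUN, a difference of 0.59 (technical SD 0.0403). Grin2b had 9.04 in LD, 8.80 in CE, 8.33 in L-RUN, 8.60 in RUN and 8.79 in H-RUN, a difference of 0.46. LD was the highest and L-RUN the lowest library for both. Of 10 metabotropic glutamate receptor and Homer genes, 0 passed the cut-off, and the largest difference was that of the scaffold Homer2 (0.22). Of 13 expressed GABA receptor subunits, the GABA-B subunit Gabbr2 was higher (0.31) and 0 were lower, with a median of 0.13. Of 61 expressed potassium channel subunits, the G protein-gated inward rectifiers Kcnj6 (0.39) and Kcnj3 (0.37), which form channels opened by GABA-B receptors, were higher and 0 were lower, with a median of 0.08.

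Calcium and diacylglycerol signaling had the same direction. Of 45 genes of inositol phosphate, diacylglycerol and protein kinase C signaling, 11.1% passed the cut-off, against 1.54% of all expressed genes. The median was 0.08, with 5 genes higher and 0 lower. Besides Dgkh these included Dgki, diacylglycerol kinase iota (0.36), and the calcium-dependent protein kinases C Prkcb (0.41) and Prkca (0.32). The Prkcb value was 13.45 in LD, 13.22 in CE, 12.89 in L-RUN, 13.15 in RUN and 13.31 in H-RUN, and that of Prkca was 12.38 in LD, 12.37 in CE, 12.14 in L-RUN, 12.30 in RUN and 12.46 in H-RUN. L-RUN was the lowest library in both, but LD was the highest for Prkcb and H-RUN for Prkca. Of 31 expressed calcium channel and pump genes, 12.9% passed the cut-off. The median was 0.12, with 4 genes higher and 0 lower. They were the plasma membrane calcium pumps Atp2b3 (0.36) and Atp2b1 (0.31), the R-type channel subunit Cacna1e (0.31) and the sodium-calcium exchanger Slc8a1 (0.30). These lists hold long transcripts, with medians from 4.06 kb (potassium channels) to 5.80 kb (calcium channels and pumps) against 3.52 kb for all expressed genes. After the length trend described below was removed, 4 of the 5 signaling genes, 2 of 2 glutamate receptor subunits, 2 of 2 potassium channel subunits, 1 of 4 calcium genes and 0 of 1 GABA receptor subunits were still past the cut-off. Prkca (0.26) was the gene of the signaling list that was not.

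Growth factor genes did not move together. Of 16 expressed insulin-like growth factor genes, 2 were lower (Igf2 and Igfbp2), 1 was higher, and the median was -0.004. The higher gene was Pappa, a protease that cleaves IGF-binding proteins, with 7.16 in LD, 7.14 in CE, 7.28 in L-RUN, 7.496 in RUN and 7.61 in H-RUN, a difference of 0.33. H-RUN was the highest library for Pappa, which was under the cut-off (0.26) after the length trend was removed. Of 39 expressed BMP and TGF-beta pathway genes, the receptor Bmpr2 was higher (0.44), and the ligand Bmp7 (-0.33) and the latent TGF-beta binding protein Ltbp3 (-0.32) were lower. Of 6 expressed neurotrophins and receptors, 0 passed the cut-off. The share past it was 18.75% for insulin-like growth factor genes and 7.69% for BMP and TGF-beta pathway genes, against 1.54% of all expressed genes. Bdnf had values of 11.07 in LD, 11.08 in CE, 11.26 in L-RUN, 11.33 in RUN and 11.43 in H-RUN, and its difference between the runner pools was 0.17 (technical SD 0.0308). Both runner pools were above LD and CE for Bdnf, H-RUN more so. Besides Bdnf and Cwc22, the study measured Cd74, which encodes the invariant chain, and the protease gene Prss22 by qPCR. In the libraries, Cd74 had a difference of -0.29 and Prss22 of 0.42.

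Genes induced by neuronal activity were 42 in the list and 39 expressed. Of these, 2 were higher in H-RUN and 0 lower, which is 5.13% past the cut-off, against 1.54% of all expressed genes. The median was 0.07, with 29 differences positive, and 51.4% of all expressed genes had a positive difference. Nr4a3, an orphan nuclear receptor, had values of 8.32 in LD, 8.33 in CE, 7.81 in L-RUN, 8.06 in RUN and 8.14 in H-RUN, a difference of 0.33. Ptgs2, cyclooxygenase 2, had 9.32 in LD, 9.37 in CE, 9.42 in L-RUN, 9.60 in RUN and 9.72 in H-RUN, a difference of 0.30. The genes passed the cut-off for different libraries, since L-RUN was low for Nr4a3 and H-RUN was high for Ptgs2. After the length trend described below was removed, Nr4a3 (0.2962) and Ptgs2 (0.28) were both under the cut-off. Arc, a synaptic gene chosen here after its value was seen, went from 0.2987 to 0.3013 and was then the only activity-induced gene past it.

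The upstream sequences of these activity-induced genes are shown because such genes are a known class of targets of CREB, a factor that binds the cyclic AMP response element TGACGTCA or its shorter form TGACG. They are RefSeq sequences of GRCm38.p6, plus strand, 5′ to 3′, and end at the base before the annotated gene start. The capitals mark TGACG on either strand. The Nr4a3 sequence is chr4:48045055-48045152 (98 bases) and the Ptgs2 sequence is chr1:150099781-150100030 (250 bases).
Nr4a3: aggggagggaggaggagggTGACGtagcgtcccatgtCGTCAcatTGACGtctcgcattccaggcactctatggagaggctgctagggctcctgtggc
Ptgs2: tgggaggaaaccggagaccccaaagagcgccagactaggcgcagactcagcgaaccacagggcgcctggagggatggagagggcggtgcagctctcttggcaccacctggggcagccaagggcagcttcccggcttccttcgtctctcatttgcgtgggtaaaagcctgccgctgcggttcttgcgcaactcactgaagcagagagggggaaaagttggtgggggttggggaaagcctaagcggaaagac
The Nr4a3 stretch holds TGACG 3 times, from 79 to 53 bases before the gene start, and the Ptgs2 stretch 0 times. Bases past the annotated start or farther upstream were not searched, so the 0 does not mean that Ptgs2 lacks the element. Over the windows of 250 bases before each RefSeq start, on both strands, TGACG was found in 17.8% of 32851 windows, in 50% of the 44 windows of activity-induced genes (31 genes with an entry), in 21.3% of the 122 windows of genes higher in H-RUN and in 13.8% of the 65 windows of lower genes. The whole element TGACGTCA, each match of which also counts as TGACG, was in 1.55%, 11.4%, 0.82% and 0% of the same windows. A match of letters is a description and not a measurement of binding.

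Stress, proliferation and neurogenesis lists each held at most 1 gene past the cut-off. The share was 3.70% for glucocorticoid and stress hormone genes, 2.94% for heat shock and chaperone genes and 0% for cell cycle genes. It was 6.67% for genes of neural stem cells, neuroblasts and immature neurons, against 1.54% of all expressed genes. Of 27 expressed glucocorticoid and stress hormone genes, the mineralocorticoid receptor Nr3c2 was higher (0.30), 0 were lower, and the median was -0.008. With the length trend removed, Nr3c2 was at 0.26 and 0 genes of this list passed. Of 34 heat shock and chaperone genes, the small heat shock protein Hspb8 was lower (-0.34) and 0 were higher, but 28 differences were negative and the median was -0.09. Of 17 expressed cell cycle genes, 0 passed the cut-off, with a range of -0.12 (cyclin Ccnd1) to 0.15 (replication factor Mcm6). Of 15 expressed genes of neural stem cells, neuroblasts and immature neurons, Prox1 alone passed it, and the median was -0.04.

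Ribosomal and mitochondrial genes had small differences in a shared direction. Of 80 expressed cytosolic ribosomal protein genes, 77 were on the lower side in H-RUN with a median of -0.11, and 0 passed the cut-off. The Rpl36 value, with the largest difference of this list (-0.24), was 11.12 in LD, 11.30 in CE, 11.46 in L-RUN, 11.32 in RUN and 11.23 in H-RUN. Of 78 oxidative phosphorylation genes, 57 were on the lower side with a median of -0.04, and 0 passed. Their transcripts are short, with medians of 1.11 kb and 1.14 kb. When the trend with transcript length was removed, the median became -0.07 for the ribosomal protein genes and 0.001 for the oxidative phosphorylation genes, so that the sign of the second group turned. Ribosomal protein genes have processed pseudogenes with near-identical sequence, so their single values are uncertain.

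The difference between H-RUN and L-RUN moved with transcript length across the genome. Over the 12765 expressed genes with an annotated length (94.2%), its Spearman correlation with the length of the longest transcript was 0.343. Genes are not independent replicates, and all points share the same pair of libraries, so this is a description. The median difference went from -0.05 in the decile of the shortest transcripts (median 1.16 kb) to 0.07 in the decile of the longest (8.57 kb). The longest decile held 52 of the higher genes and 4 of the lower ones, and the shortest held 3 and 10. The higher genes had a median transcript of 5.92 kb and the lower genes of 2.96 kb. With the trend removed by a smooth curve, 90 genes were higher, 82 of which were among the 132, and 82 were lower, 67 of which were among the 76. The median of the leptomeningeal list over its 29 members with a length was -0.60 before removal and -0.59 after it. Correlations with GC content (-0.10) and with mean expression (0.16) were weaker. The cause of this trend was not tested.

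**Figure D5:**
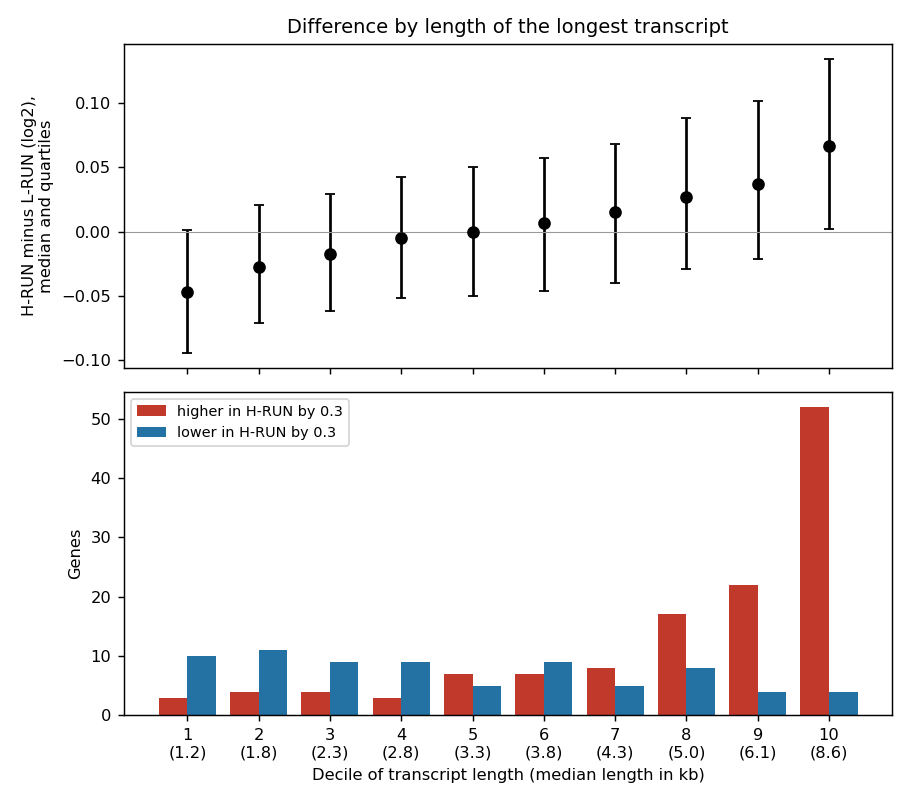
Expressed genes were divided into 10 groups by the length of their longest transcript, whose median in kb stands under each group. The upper panel gives the median H-RUN minus L-RUN difference (log2) with bars from the lower to the upper quartile, which goes from -0.05 to 0.07, and the lower panel counts genes past 0.3 in each direction, with 52 higher and 4 lower genes in the longest group.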

How the data were processed

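DG RNA was pooled from 8 mice (LD, CE, RUN) or 4 mice (L-RUN, H-RUN) and sequenced as a single library for each group. Per the submitters' processing notes, CASAVA 1.8.2, TopHat2 2.0.10, HTSeq and DESeq2 1.10.1 were used with mm10. The authors deposited regularized log values (log2), normalized over all 5 libraries at once. Shrinkage depends on counts, which are not used here, so depth is unknown and no model of counts was fitted. Groups were taken from the labels. The number of unused value columns was 0.

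H-RUN minus L-RUN was computed per gene symbol over genes with a mean of at least 5, and genes were counted as higher at 0.3 or more and as lower at -0.3 or less. The technical SD came from the median absolute deviation of RUN against log2 of the linear mean of L-RUN and H-RUN, per decile of expression, with its variance taken as 1.5 times that of a library and that of a difference as 2 times. No group has replicates, so no test was run. The scripts were tested on simulated data. Gene lists were described by counts and medians beside those of all expressed genes. The comparison and the lists were chosen with earlier results of these data known, and the lists of imprinted genes, Eph receptors and ephrins, and protocadherins were added after values were seen.

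Named genes were the 15 with the largest difference in each direction, from each list the members past the cut-off or otherwise the 2 with the largest difference, the genes measured by qPCR, the genes at the minimum mean, and genes past the cut-off from LD in opposite directions. Some genes that meet this rule are not reported here. Positions and lengths came from GENCODE (GRCm38), upstream sequences from RefSeq (GRCm38.p6), both matched by symbol. Length and GC trends were removed by lowess (fraction 0.3). Alternatives were a cut-off of 0.4, centring, quantile normalization, a minimum mean of 7 or none, a further limit of 3 technical SDs, and the doubled differences of RUN from either pool. Calculations were made in python 3.11.15 with pandas 2.3.3, numpy 2.4.6, statsmodels 0.14.6 and scipy 1.17.1, and figures with matplotlib 3.10.9.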

Additional observations from a re-analysis of the deposited data

How the results depend on the processing

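A cut-off of 0.4 gave 44 higher and 37 lower genes. RUN minus L-RUN, doubled, gave 230 higher genes, of which 125 were among the 132, and 127 lower genes, of which 68 were among the 76. H-RUN minus RUN, doubled, gave 133 and 112, which share 81 and 60 genes with the main counts. The cause of these shifts was not tested, but a doubled difference also doubles its noise. Quantile normalization gave 116 higher and 77 lower genes, and a minimum mean of 7 gave 131 and 65. Leaving out the leptomeningeal, pyramidal cell and interneuron markers, an alternative chosen after seeing the data, gave 128 and 51. With the longest coding sequence in place of the longest transcript, the correlation with length was 0.261. The 73 named genes past the cut-off had the same sign under 6 alternatives of scaling, trend and library, and between 56 and 71 of them were still past it. For the doubled differences the sign was fixed by the intermediate RUN values of these genes, and centring moved each gene by only 0.003. The kept sign is therefore no check in these settings. Quantile normalization put Atp2b1, Cacna1e, Gabbr2, Nr3c2, Prkca, Prox1, Slc1a2, Slc47a1 and Slc8a1, among others, under the cut-off, and H-RUN minus RUN, doubled, did so for Nr4a3, Ptgs2, Pappa, Kcnj3, Bmp7 and Bgn, among others. No paired analysis was possible because each group is 1 library. The values measure these pools and not the spread between mice.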

Other observations

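The lists in this part were put together after values were seen, and genes were named from them or from the genes past the cut-off in the same way, so the counts are descriptions. Among 40 expressed imprinted genes, 4 were lower in H-RUN than in L-RUN by at least 0.3 and 0 were higher, with a median of -0.05. Besides Igf2 and Nnat these were Plagl1 (-0.43), a zinc finger gene known to regulate other imprinted genes, and Peg10 (-0.41), a gene derived from a retrotransposon. Over all expressed genes, 0.561% were lower. After the length trend was removed, 4 imprinted genes were again lower.

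Of 19 expressed Eph receptors and ephrins, the receptors Epha6 (0.50), Epha7 (0.40) and Epha5 (0.36) were higher by at least 0.3 and 0 were lower, against 0.974% of all expressed genes on the higher side, and the list median was 0.06, with 11 positive and 8 negative differences. With the length trend removed, 3 members were higher, 1 (Efnb2, -0.31) was lower and the median was -0.01. Of 63 expressed protocadherins, 61 had a positive difference, with a median of 0.09, and 5 passed the cut-off, namely Pcdh1, Pcdhgc5 (0.45), Pcdhgc3 (0.37), Pcdhac2 (0.33) and Pcdhga3 (0.30). Of all expressed genes, 51.4% had a positive difference and 0.974% were higher by at least 0.3. The clustered protocadherins share constant exons, so that reads there cannot be given to a single gene and their values are not independent. After the length trend was removed, the median was 0.07 and 3 passed the cut-off, with Pcdhac2 (0.29) and Pcdhga3 (0.28) under it.

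Synaptic and second messenger genes past the cut-off on the higher side that no list held included the synaptic vesicle proteins Sv2c (0.44) and Sv2b (0.37), the muscarinic receptor Chrm3 (0.41), the adenylyl cyclases Adcy9 (0.44) and Adcy1 (0.30), and the calcium-dependent kinase Camk2a (0.31). On the lower side, Htr2c, a serotonin receptor, differed by -0.43, Cp, the copper protein ceruloplasmin, by -0.51, and Slc7a11, the cystine-glutamate exchanger, by -0.43. Leaving out the lists added after values were seen, the other lists held 20.5% of the 132 higher genes and 46.1% of the 76 lower genes. The share of all expressed genes in those lists was not computed, so these percentages have no yardstick.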
